A study of Mus musculus with 16 samples.

Results

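The comparison described here sets cortical neuron cultures given tianeptine (TIA) before oxygen–glucose deprivation (OGD-TIA, cultures 13 to 16) against cultures given vehicle before the same OGD (OGD-VEH, cultures 9 to 12), which is 8 of the 16 cultures in the series. Isoform values in FPKM (fragments per kilobase of transcript, scaled to the mapped reads of the library) were summed for each gene symbol. Of 53679 symbols the 16351 that averaged 0.5 FPKM or more across the 8 cultures were compared. The 4 cultures of each group were compared as unmatched groups and also by order (13 with 9, 14 with 10, 15 with 11 and 16 with 12). The labels only number the cultures from 1 to 16 and do not tie a culture of one group to a culture of another, so the matching by order is a description. By order, 5381 genes had the same direction in all 4 pairs, 2353 of them higher and 3028 lower with TIA.

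All 16 cultures were primary mouse neurons of wild-type genotype from the cortex at embryonic day 15. They received 10 µM TIA or vehicle (called untreated in the labels) on day 8 in vitro. At day 9, after 24 h of pretreatment, they went through 3 h of OGD or a sham procedure, and RNA was taken 6 h later. The other 8 cultures, which had no OGD, form the groups CONTROL-VEH (1 to 4) and CONTROL-TIA (5 to 8). The study's methods call the 4 cultures of a group biological replicates, and the labels do not say whether they came from separate litters, so the p-values measure the spread between these cultures.

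In OGD, cells are held without oxygen and without glucose, which is used as a model of ischemic stroke in a dish. Neurons that run out of ATP depolarise, release glutamate and take up calcium through NMDA receptors, while p53, death receptors, antioxidant genes and inflammatory genes respond over the following hours. Tianeptine is an antidepressant that binds opioid receptors as an agonist and differs from the usual serotonin reuptake inhibitors. The question of the comparison is which transcripts of OGD cultures differed when TIA had been present beforehand.

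The labelled cell type was checked against marker lists. All 17 neuron markers and all 15 astrocyte markers passed the filter, as did 10 of 13 oligodendrocyte lineage markers, 3 of 15 microglia markers and 2 of 11 endothelial and mural markers. The astrocyte markers summed to between 3165 and 9821 FPKM in the OGD cultures and the neuron markers to between 1819 and 3991 FPKM, so glial transcripts were abundant in cultures labelled as neurons. No neuron, astrocyte, oligodendrocyte lineage or microglia marker was listed at 0 in all OGD cultures, while 2 endothelial and mural markers were. The summed microglia markers stayed between 11.3 and 24.5 FPKM. The reads behind a single FPKM value are not given, so no counting intervals are stated.

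A few cultures stood apart within their groups. On the first principal component of the 8 OGD cultures, which held 39.2% of the variance, OGD-VEH 9 scored -40 and lay among OGD-TIA 13, 14 and 15 at -46.5, -34.6 and -43.5. OGD-TIA 16 scored 32.6 and lay beside OGD-VEH 10 and 11 at 26.5 and 20.8, and OGD-VEH 12 was farthest out at 84.9. Array quality weights, which limma estimates from how far each culture lies from its group, were 0.357 for OGD-VEH 9, 0.372 for OGD-VEH 12 and 0.37 for OGD-TIA 16, and between 1.33 and 2.31 for the other cultures.

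The marker sums followed the same order. Neuron markers summed to 3617, 2761, 2732 and 1819 FPKM in OGD-VEH 9 to 12 and to 3822, 3845, 3991 and 2449 FPKM in OGD-TIA 13 to 16. Astrocyte markers summed to 3819, 5650, 5310 and 9821 FPKM in OGD-VEH and to 3603, 3614, 3165 and 6920 FPKM in OGD-TIA. Oligodendrocyte lineage markers were at 261, 580, 547 and 727 FPKM in OGD-VEH and at 239, 292, 248 and 477 FPKM in OGD-TIA. OGD-VEH 9 thus held neuron and glial levels close to those of OGD-TIA 13 to 15, and the groups overlapped in all 3 sums.

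**Figure D1:**
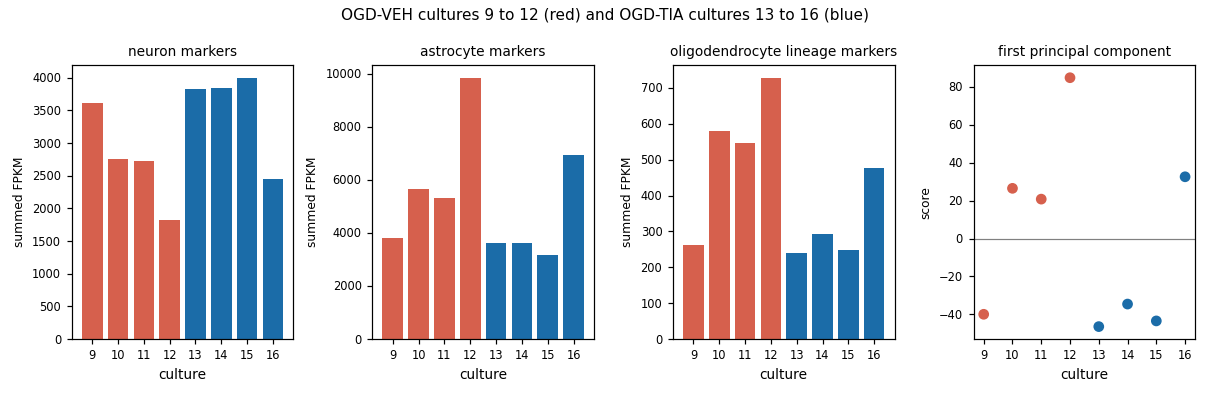
Summed FPKM of neuron, astrocyte and oligodendrocyte lineage markers (bars, from 0) and the score on the first principal component (points, no unit) in each of the 8 OGD cultures, with OGD-VEH in red and OGD-TIA in blue. OGD-VEH 9 lies with OGD-TIA 13 to 15 in every panel, OGD-VEH 12 is lowest in neuron markers at 1819 FPKM and highest in astrocyte markers at 9821 FPKM, and OGD-TIA 16 departs from the other OGD-TIA cultures in the direction of OGD-VEH.

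In the by-order pairs, 14 of the 17 neuron markers were higher with TIA in all 4 pairs and none was lower. Of the astrocyte markers 10 of 15, and of the oligodendrocyte lineage markers 8 of 10, were lower in all 4 pairs. Over all genes tested, 14.4% were higher and 18.5% lower in all 4 pairs. Snap25, a protein of synaptic vesicle fusion (chr2:136713453-136782428 in GRCm38), was at 227, 159, 155 and 83.8 FPKM in OGD-VEH and 255, 230, 232 and 149 FPKM in OGD-TIA. Gja1, the gap junction protein of astrocytes, was at 37.8, 60.2, 56.9 and 130 FPKM and 34.9, 37.5, 32 and 97.9 FPKM in the same order. Both genes had overlapping groups, with OGD-VEH 9 close to its by-order partner. In RNA from a whole culture, fewer cells of a type and less RNA per cell cannot be told apart, and the part of this shift in markers in the gene differences that follow was not tested.

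No gene passed the thresholds in the unmatched comparison. limma on log2(FPKM + 0.1) called 0 of 16351 genes (0%) at an adjusted p of at most 0.05 with a log2 fold change of at least 1 in size, and the smallest adjusted p was 0.267, for Polr1a. An unadjusted p under 0.05 was found for 1293 genes (7.91%), 469 higher (2.87%) and 824 lower (5.04%) with TIA. With the libraries scaled by median ratios in addition, which moved the median log2 difference of all genes from -0.05 to 0.00, the split was 583 higher and 651 lower, again with 0 genes called. With array quality weights, which count OGD-VEH 9, OGD-VEH 12 and OGD-TIA 16 least, limma called 408 of the 16351 genes, 146 higher and 262 lower. The smallest adjusted p of that fit was 0.0453.

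The groups did not overlap at all for 622 genes (3.8%), 212 with every OGD-TIA culture above every OGD-VEH culture (1.3%) and 410 with every one below (2.51%). By order, 32.9% of genes had the same direction in all 4 pairs. For most of these the difference was small: 405 higher and 542 lower genes differed by at least 0.25 on the log2 scale in every pair, 95 and 125 by at least 0.5, and 13 and 14 by at least 1. The mean log2 difference had a median of 0.41 among the higher genes and -0.37 among the lower genes.

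The pairs did not contribute alike. Among the higher genes the median difference was 0.14 in pair 13 with 9 against 0.42 to 0.44 in the other pairs, and among the lower genes it was -0.15 against -0.33 to -0.44. Of the 4365 genes that were lower in exactly 3 pairs, 2547 (58.4%) missed in pair 13 with 9, and of the 2950 that were higher in exactly 3 pairs, 1154 (39.1%) did. Across the 16351 genes the differences of pair 13 with 9 correlated with those of the other pairs at a Pearson r of 0.01 to 0.06, while the other pairs correlated with each other at 0.20 to 0.30. These are correlations across genes of the same libraries and carry no p-value. At the margin of the rule, Ikzf4 was just inside, with a difference of 7.7e-05 in pair 13 with 9, and Bcl11a was just outside, with 6.1e-05 in pair 14 with 10 where the other pairs were lower.

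The share with a common direction depended on the kind of gene. It was 35.8% of 13266 protein-coding genes, 17.8% of 1436 pseudogenes and 23% of 1649 other genes. By mean level it ran from 23.9% at 0.5 to 2 FPKM to 37.8% at 50 FPKM and above. When isoforms were weighted by their length before summing, which gives every read the same weight within a gene, 2090 of the 2353 higher genes and 2708 of the 3028 lower genes kept their direction in all 4 pairs, and 4 genes turned to the opposite direction in all 4.

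Trp53, Fas and Tnfrsf10b, genes of the p53 and death receptor pathway that the study names, were lower with TIA in all 4 pairs. The study measured Trp53 as a candidate gene by another method too. It named Fas, Tnfrsf10b, Casp8 and the calcium genes from these same cultures. For these, neither the direction nor the exact permutation p is independent evidence. Trp53, the gene of p53 itself (chr11:69580359-69591873 in GRCm38), was at 108, 166, 134 and 160 FPKM in OGD-VEH and at 94, 92.4, 83.4 and 120 FPKM in OGD-TIA. Only OGD-TIA 16 lay above the lowest OGD-VEH culture. The log2 difference was -0.54 ± 0.17 (SE), with an exact permutation p of 0.0571 (two-sided, 4 against 4 cultures) and an adjusted p of 0.551 by limma. Without OGD Trp53 was at 40 ± 22.7 FPKM in CONTROL-VEH and 51.5 ± 14.3 FPKM in CONTROL-TIA (SD, n = 4 each). The 403-base isoform of Trp53 carried 94.7 FPKM of the OGD-VEH mean and 62.7 FPKM of the OGD-TIA mean.

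Fas, the receptor for Fas ligand that starts apoptosis at the cell surface (chr19:34290666-34327772), was at 1.9, 4.12, 5.32 and 8.98 FPKM in OGD-VEH and at 0.901, 1.68, 1.6 and 5.13 FPKM in OGD-TIA. It was lower in every pair, by -0.80 to -1.67 on the log2 scale, and OGD-TIA 16 still lay above OGD-VEH 9 and 10. Tnfrsf10b, the mouse receptor for the death ligand TRAIL (chr14:69767472-69784411), was at 2.04, 5.67, 4.33 and 6.94 FPKM and 1.34, 2.19, 2.33 and 4.07 FPKM. The exact permutation p was 0.143 for Fas and 0.171 for Tnfrsf10b, against the smallest value of 0.0286 that 70 assignments allow. Both genes averaged 1 FPKM or less without OGD, with Fas at 0.541 ± 0.269 FPKM in CONTROL-VEH and 0.544 ± 0.109 FPKM in CONTROL-TIA.

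Casp8, the protease that death receptors activate (chr1:58795374-58847503), was at 0.383, 1.11, 1 and 0.928 FPKM in OGD-VEH and 0.236, 0.466, 0.329 and 0.939 FPKM in OGD-TIA and was higher by 0.02 in pair 16 with 12. Its exact permutation p was 0.2. OGD-TIA 16 lay between OGD-VEH 12 and OGD-VEH 11, and the other OGD-TIA cultures lay below OGD-VEH 10, 11 and 12.

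Over the list of p53 targets and death receptors, 14 of 39 genes tested (35.9%) were lower in all 4 pairs, against 18.5% of all genes. Higher were 5, near the share of all genes (12.8%, against 14.4%). The median log2 difference was -0.42 against -0.05 over all genes. The lower genes included Bax, Gadd45a, Ccng1, Btg2, Zmat3 and Eda2r. The higher ones were Plk2, Plk3, Rrm2b, Bid and Hrk. Tnfrsf1a, the main receptor for TNF (chr6:125349362-125362484), was at 45.3, 86.6, 78.7 and 176 FPKM in OGD-VEH and 8.6, 28.8, 46.6 and 101 FPKM in OGD-TIA, and in CONTROL cultures it averaged 7.34 and 7.14 FPKM. With pair 13 with 9 left out, 28 of the 39 genes were lower in the remaining 3 pairs, where the share of all genes was 34.1%.

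Slc8a2, Atp2b3, Grin1 and Camk2a, calcium genes that the study names, were higher with TIA in all 4 pairs. Slc8a2, a sodium and calcium exchanger of the plasma membrane (chr7:16129826-16161063), was at 26.4, 14.7, 15.1 and 8.9 FPKM in OGD-VEH and at 29, 27.2, 28.8 and 15.2 FPKM in OGD-TIA. Atp2b3, a calcium pump of the plasma membrane (chrX:73503086-73571005), was at 6.33, 2.7, 3.03 and 1.9 FPKM and 6.42, 7.46, 6.74 and 4.06 FPKM. In both, OGD-VEH 9 and OGD-TIA 16 were the only cultures whose values crossed between the groups, and both had an exact permutation p of 0.0571. The log2 differences were 0.68 ± 0.34 (SE) and 0.91 ± 0.36 (SE). All 4 OGD-TIA cultures remained below the CONTROL-VEH mean of 35 FPKM for Slc8a2 and of 9.25 FPKM for Atp2b3.

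Grin1, the subunit that every NMDA receptor contains (chr2:25291181-25319187), was at 128, 85.5, 72.9 and 30.3 FPKM in OGD-VEH and at 219, 160, 166 and 90.1 FPKM in OGD-TIA. The log2 difference was 1.11 ± 0.44 (SE), or 0.80 with isoforms weighted by length, and the exact permutation p was 0.0571. A 456-base isoform made up 57.1% of the difference and went from 8.5 to 53.9 FPKM, while the 527-base isoform went from 44.3 to 67.4 FPKM. Camk2a, the calcium-dependent kinase of excitatory synapses, was at 71.9, 22.8, 41 and 12.6 FPKM and 103, 84, 77.9 and 18 FPKM, with overlapping groups and an exact permutation p of 0.257. Its 530-base isoform, listed at 0 in OGD-VEH 10 and 12, at 0.002 FPKM in OGD-TIA 16 and at 29.8 FPKM in OGD-VEH 9, made up 74.5% of the difference.

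Across the list of calcium pumps, exchangers and channels, 21 of 36 genes tested were higher in all 4 pairs (58.3%, against 14.4% of all genes). Lower were 2, Cacna1c and Stim2 (5.56%, against 18.5%). The median log2 difference was 0.46, against -0.05 over all genes. All 4 plasma membrane pumps (Atp2b1 to Atp2b4) and the 3 exchangers Slc8a1, Slc8a2 and Slc8a3 were among the higher genes, as were the release channels Itpr1, Ryr2 and Ryr3. Atp2b1 (chr10:98914406-99026143) was at 134, 103, 128 and 71 FPKM in OGD-VEH and 159, 150, 167 and 104 FPKM in OGD-TIA. Ryr3 (chr2:112631355-113217096) was at 22, 14.7, 10.7 and 5.25 FPKM and 26.3, 25, 26.4 and 14.5 FPKM. The groups overlapped for both genes.

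**Figure D2:**
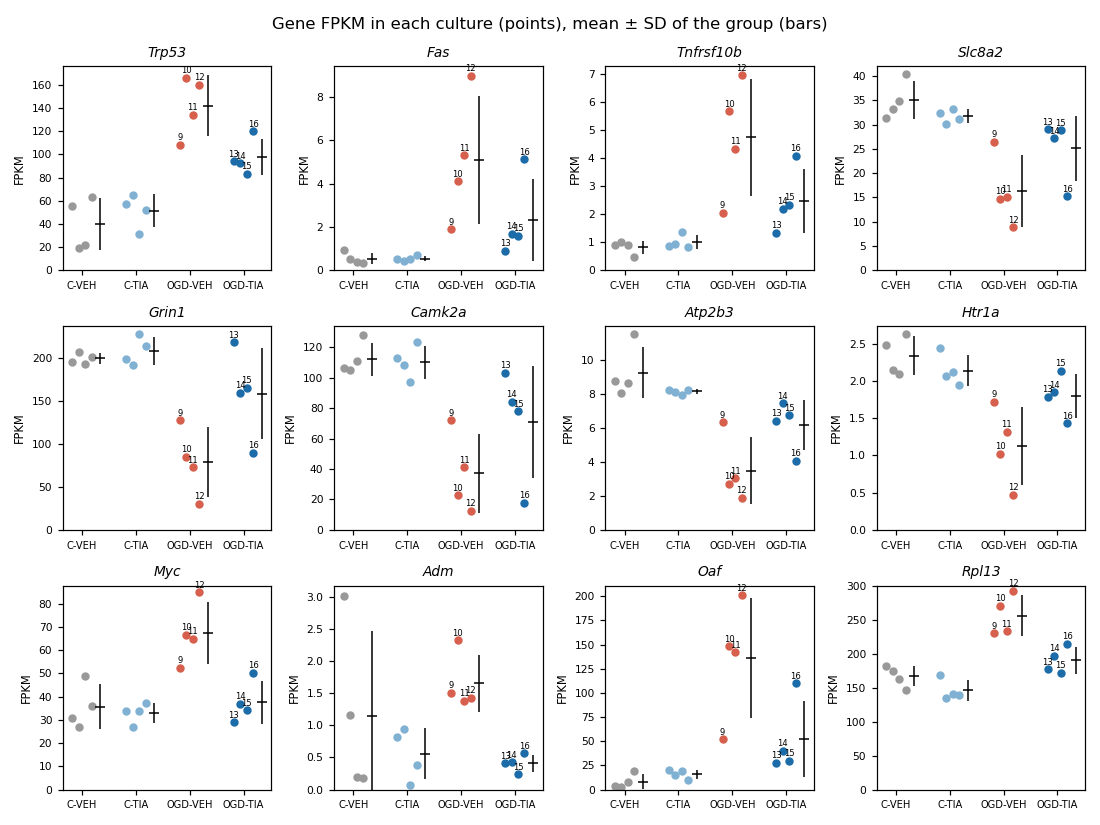
FPKM of 12 genes in each culture (vertical axes from 0; points, with culture numbers for the OGD groups) of the 4 groups, the CONTROL groups to the left of the OGD groups, with the group mean and SD as a line beside the points (n = 4). Trp53, Fas, Tnfrsf10b and Oaf were lower with TIA after OGD and Slc8a2, Grin1, Camk2a, Atp2b3 and Htr1a were higher, in each with OGD-VEH 9 and OGD-TIA 16 reaching towards the other group. Myc, Adm and Rpl13 had no overlap between the OGD groups.

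Of 37 genes of the excitatory synapse tested, 24 were higher in all 4 pairs (64.9%, against 14.4% of all genes) and 1, the kainate receptor Grik3, was lower, with a median log2 difference of 0.37. The higher genes included NMDA receptor subunits (Grin2a, Grin2b, Grin2d, Grin3a), AMPA receptor subunits (Gria1, Gria2, Gria4), metabotropic receptors (Grm2, Grm3, Grm7, Grm8) and the vesicular glutamate transporters Slc17a6 and Slc17a7. Dlg2, a scaffold of the postsynaptic density (chr7:90476672-92449247), was at 135, 67.9, 74.1 and 23.5 FPKM in OGD-VEH and 172, 146, 163 and 107 FPKM in OGD-TIA. The whole list summed to 1325 to 2508 FPKM in OGD-VEH, 1853 to 2786 in OGD-TIA and 2978 to 3418 in CONTROL-VEH. The neuron markers, 14 of 17 of them higher in all pairs, had a median difference of 0.51.

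Of 27 genes of inhibitory neurons tested, 6 were higher in all 4 pairs (22.2%, against 14.4% of all genes) and 4 lower (14.8%, against 18.5%). The number of higher genes depended on the processing, with 14 higher and 5 lower when isoforms were weighted by length and 16 higher (59.3%, against 21.4% of all genes) and 5 lower without pair 13 with 9. The higher ones included GABA-A receptor subunits and their scaffold (Gabra5, Gabrb2, Gphn) with the interneuron genes Sst and Calb2. The lower ones included the transcription factors of the interneuron lineage Dlx1, Dlx2 and Dlx5. Dlx1 (chr2:71528113-71533981) was at 80.7, 148, 148 and 214 FPKM in OGD-VEH and 51, 64.6, 70.3 and 142 FPKM in OGD-TIA, and only OGD-TIA 16 exceeded the lowest OGD-VEH culture. Gabrb2 (chr11:42419757-42629028), a receptor subunit, was at 16, 9.84, 11.2 and 5.84 FPKM and 18.7, 19.1, 18.1 and 13.3 FPKM.

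The serotonin and opioid systems were measured at low levels. Of 18 serotonin genes 10 passed the filter. The 5 receptors Htr1a, Htr1b, Htr5a, Htr6 and Htr7 were higher in all 4 pairs (50%, against 14.4% of all genes). Lower were Htr3a and Maob, the monoamine oxidase (20%, against 18.5%). Htr1a (chr13:105443639-105448122), an inhibitory serotonin receptor, was at 1.72, 1.02, 1.32 and 0.469 FPKM in OGD-VEH and 1.79, 1.85, 2.14 and 1.43 FPKM in OGD-TIA, with an exact permutation p of 0.0571. The mu opioid receptor Oprm1 was at 0.049, 0.054, 0.06 and 0.097 FPKM and 0.069, 0.08, 0.05 and 0.088 FPKM, under the filter in every culture. The delta receptor Oprd1 (chr4:132110726-132144486) was at 0.308, 0.364, 0.293 and 0.126 FPKM and 0.435, 0.418, 0.562 and 0.326 FPKM, with an exact permutation p of 0.0571. The serotonin transporter Slc6a4 was under 0.3 FPKM in all 8 cultures and its exact permutation p was 0.886.

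An exact p was computed for 19 genes, the 16 that the study names and these 3 targets, and none was under 0.05. The study named Slc8a2, Grin1, Camk2a, Htr4, Atp2b3, Tnfrsf10b, Fas and Casp8 from these same cultures. The exact p of these genes is a description and not an independent test. The next smallest value that the assignments allow, 0.0571, was reached by 7 genes, among them Trp53, Slc8a2, Grin1, Atp2b3, Htr1a and Oprd1. In the genes named except Oprd1 the crossing cultures were OGD-VEH 9 and OGD-TIA 16. Hif1a, the oxygen-regulated transcription factor, was at 84, 81.9, 80.2 and 99.7 FPKM in OGD-VEH and 73.5, 83, 104 and 73.5 FPKM in OGD-TIA, with no common direction. Among the others the exact permutation p was 0.286 for Reep5, Htr1b and Htr4, 0.4 for Adamts7, 0.571 for Oprm1, 0.629 for Hif1a and 0.686 for Mmp3, the last of which did not exceed 0.126 FPKM in any OGD culture.

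The 24 protein-coding genes with the largest smallest pair difference, 12 in each direction, were chosen on the readout itself and are given without a test. Those higher with TIA included Mthfd2, Drc1, Nat9, Atp2b4, Gm960, Ppp1r1b, Coro2a, Inpp4a, Gm3488, Mef2c and Nbeal2. Lower were Polr1a, Cln6, Zbtb7b, Cth, Ccdc141, Duxbl1, Tm4sf1, Lamc1, Oaf, Ect2, Mob1a and Clcf1. Of these, 8 had no overlap between the groups, against 3.8% of all genes, a count that the choice of genes with a large difference in every pair raises. Their mean log2 differences lay between 1.01 and 1.85 in size.

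**Figure D3:**
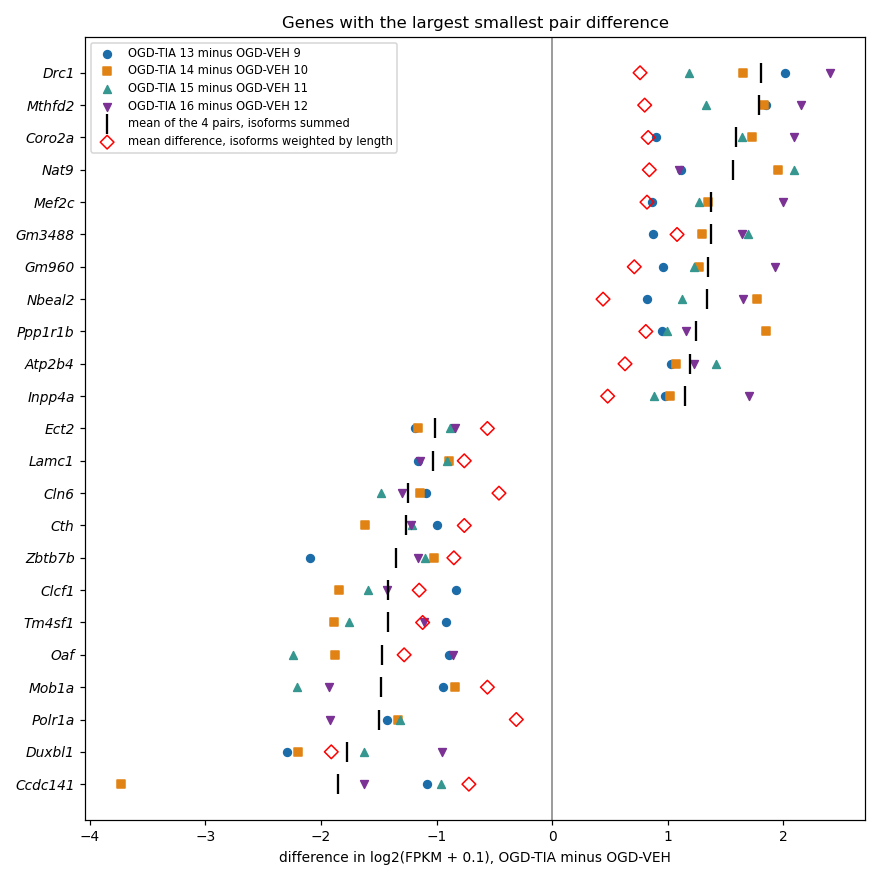
Differences in log2(FPKM + 0.1) between OGD-TIA and OGD-VEH (horizontal axis) for the genes named above, with each by-order pair as a coloured symbol, the mean of the 4 pairs as a black line and the mean difference with isoforms weighted by length as a red diamond. All pairs of a gene lie on one side of 0 because the genes were chosen so, and the diamonds lie nearer 0 than the lines for the genes plotted, with Duxbl1 as the exception.

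Most of these large differences rested on short isoforms. In 20 of the 24 genes the isoform that carried the largest part of the difference was under 700 bases long. Mthfd2, a mitochondrial enzyme of one-carbon metabolism (chr6:83305691-83325908), was at 24.4, 20.1, 24.5 and 10.3 FPKM in OGD-VEH and at 88.3, 71.7, 61.9 and 45.9 FPKM in OGD-TIA with no overlap. A 358-base isoform made up 69.8% of that difference, at 1.99 FPKM on average in OGD-VEH and 34.9 FPKM in OGD-TIA. Weighted by length, the log2 difference of the gene was 0.80 in place of 1.79.

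Mef2c, a transcription factor of neuronal survival and synapse number (chr13:83504034-83667080), was at 202, 144, 183 and 50.2 FPKM in OGD-VEH and 366, 367, 440 and 202 FPKM in OGD-TIA, where the 363-base isoform made up 64.3% of the difference and the 6088-base isoform 14.6%. OGD-TIA 16 equalled OGD-VEH 9 at 202 FPKM to 3 digits.

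Polr1a, the largest subunit of RNA polymerase I, which transcribes ribosomal RNA (chr6:71909053-71984935), was at 73.9, 85.1, 70 and 116 FPKM in OGD-VEH and at 27.3, 33.8, 27.9 and 30.5 FPKM in OGD-TIA with no overlap. Isoforms of 352 and 359 bases made up 48.1% and 26.8% of the difference. The log2 difference of -1.50 was -0.31 with isoforms weighted by length. Cln6, a membrane protein of the endoplasmic reticulum, Nat9 and Zfp456, which were also among the 5 genes with the smallest p, went from -1.25 to -0.46, from 1.56 to 0.84 and from -2.43 to -0.38. The fifth of them, Zfp512, was at 50, 44.9, 52.3 and 41.7 FPKM and 81.2, 85, 84.6 and 67.2 FPKM and its log2 difference of 0.75 became 0.25.

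Of the 24 genes 5 kept a log2 difference of at least 1 in size under length weighting (Gm3488, Duxbl1, Tm4sf1, Oaf and Clcf1). Oaf (chr9:43221235-43239911), the mouse counterpart of the fly gene out at first, was at 52, 148, 142 and 201 FPKM in OGD-VEH and 27.9, 40.2, 30 and 110 FPKM in OGD-TIA, against CONTROL means of 8.33 and 15.9 FPKM. Clcf1, a cytokine of the interleukin-6 family (chr19:4214238-4223490), was at 2.85, 7.31, 4.83 and 12 FPKM and 1.56, 1.96, 1.54 and 4.42 FPKM. Tm4sf1, a tetraspanin-like surface protein (chr3:57285611-57301988), was at 3.04, 5.04, 1.72 and 10.9 FPKM and 1.56, 1.29, 0.438 and 5.01 FPKM. In all 3 genes OGD-TIA 16 exceeded at least 1 OGD-VEH culture, and Clcf1 and Tm4sf1 averaged under 1 FPKM in both CONTROL groups.

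Of 32 immediate early genes tested, 12 were lower in all 4 pairs (37.5%, against 18.5% of all genes), with a list median of -0.42. These were Fos, Fosl1, Jun, Egr1, Egr2, Ier3, Ier5, Klf4, Myc, Dusp4, Dusp5 and Dusp6. The 5 higher genes (Fosl2, Egr3, Nr4a3, Klf2, Homer1) were near the share of all genes, at 15.6% against 14.4%. Without pair 13 with 9, 21 were lower in the remaining pairs (65.6%, against 34.1% of all genes). Myc, a transcription factor of growth (chr15:61985391-61990374), was at 52.5, 66.6, 65 and 84.9 FPKM in OGD-VEH and 28.9, 36.9, 34.2 and 50.3 FPKM in OGD-TIA, with no overlap, and its 4 pair differences lay close together at -0.86, -0.85, -0.92 and -0.76. Fos, a subunit of AP-1 (chr12:85473890-85477273), was at 5.08, 23.2, 10.4 and 10.1 FPKM and 2.95, 3.27, 3.3 and 5.83 FPKM, with OGD-TIA 16 above OGD-VEH 9. In CONTROL cultures Myc averaged 35.7 and 32.9 FPKM and Fos 2.48 and 2 FPKM.

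Of 38 inflammatory genes of TNF, NF-kappaB and chemokines, 22 passed the filter, 8 of these were lower in all 4 pairs (36.4%, against 18.5% of all genes) and none was higher. The median of -0.61 was the second lowest of the lists. Lower without pair 13 with 9 were 18 (81.8%, against 34.1% of all genes), and higher were 2 (9.09%, against 21.4%). Ccl2, the chemokine that draws monocytes (chr11:82035571-82037453), was at 0.599, 11, 5.73 and 7.57 FPKM in OGD-VEH and 0.344, 2.43, 0.747 and 2.99 FPKM in OGD-TIA. Vcam1, an adhesion molecule for leukocytes (chr3:116109949-116129688), was at 19.2, 41.3, 47 and 60.3 FPKM and 12, 17.8, 11.3 and 39.7 FPKM. OGD-VEH 9 was the lowest OGD-VEH culture for both genes, and OGD-TIA 16 the highest OGD-TIA culture. Tnf, Il1a, Il1b and Il6 were under the filter. Of the 3 microglia markers tested Cd68 was lower in all 4 pairs, at 9.72, 14.4, 12.4 and 11.9 FPKM and 4.25, 3, 4.19 and 10.8 FPKM, and Aif1 was higher, at 1.06, 0.594, 0.514 and 0.242 FPKM and 2.45, 1.19, 1.52 and 0.308 FPKM.

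Of 27 genes of the plasminogen system and the matrix, 13 were lower in all 4 pairs (48.1%, against 18.5% of all genes) and 1, Col4a2, was higher. Without pair 13 with 9, 21 were lower (77.8%, against 34.1% of all genes) and 2 higher (7.41%, against 21.4%). Plaur, the receptor of the urokinase plasminogen activator (chr7:24462484-24475968), was at 0.551, 2.43, 1.09 and 1.91 FPKM in OGD-VEH and 0.276, 0.186, 0.199 and 1.36 FPKM in OGD-TIA. Cyr61, a matrix-associated signalling protein (chr3:145646976-145649981), was at 4.12, 11.1, 10.6 and 15.7 FPKM and 2.9, 3.59, 3.56 and 8.65 FPKM, and Lamc1, a laminin chain (chr1:153218922-153332786), was at 22.9, 54.8, 48 and 85.2 FPKM and 10.2, 29.6, 25.4 and 38.6 FPKM. All 3 had OGD-TIA 16 above OGD-VEH 9.

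**Figure D4:**
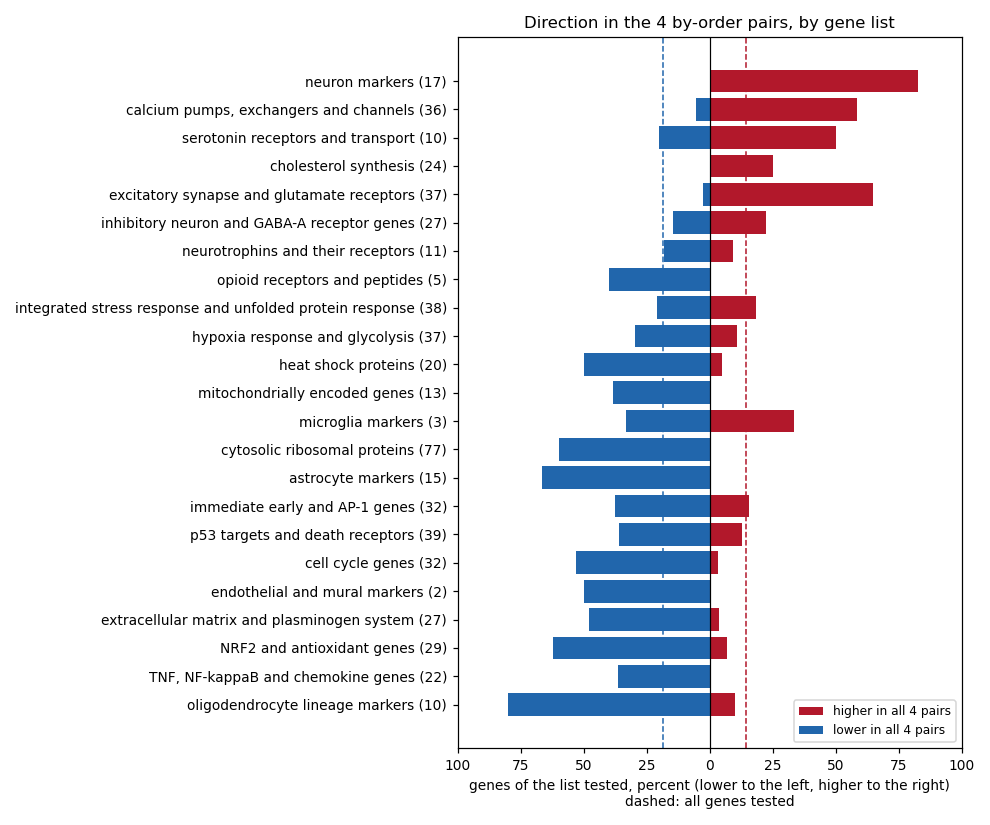
Share of the tested genes of each list (percent, horizontal axis, number tested in brackets) that were higher (red, to the right) or lower (blue, to the left) with TIA in all 4 by-order pairs, ordered by the median difference. Dashed lines mark all 16351 genes tested, at 14.4% higher and 18.5% lower, and neuron markers, calcium genes and the excitatory synapse exceed the first while oligodendrocyte, astrocyte, antioxidant, ribosomal protein and cell cycle genes exceed the second.

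Of 29 antioxidant genes tested, many of which NRF2 controls, 18 were lower in all 4 pairs (62.1%, against 18.5% of all genes) and 2 were higher (Keap1 and Acsl4), with a median of -0.54. They included the regulator itself, Nfe2l2, the thioredoxin reductase Txnrd1, the ferritin chains Fth1 and Ftl1, the metallothioneins Mt1 and Mt2, and Sod1 and Cat. Nqo1, a quinone reductase (chr8:107388225-107403206), was at 3.94, 6.15, 6.72 and 16.2 FPKM in OGD-VEH and 2.4, 2.92, 2.85 and 10.4 FPKM in OGD-TIA. Slc7a11, the cystine transporter that feeds glutathione synthesis (chr3:49892526-50443614), was at 3.66, 16.6, 14.5 and 52.4 FPKM and 3.2, 6.94, 5.91 and 31.3 FPKM. OGD-VEH 12 had the highest value for both genes, and the groups overlapped. Several of these genes are expressed in glia, and the astrocyte markers of the same cultures had a median of -0.38, whose part here was not tested.

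Of 20 heat shock genes tested, 10 were lower in all 4 pairs (50%, against 18.5% of all genes). Only 1, Hspa1a, an inducible HSP70, was higher (5%, against 14.4%), and the median was -0.09. Hspb1, a small heat shock protein (chr5:135887919-135889563), was at 2.3, 4.62, 2.41 and 6.09 FPKM in OGD-VEH and 1.77, 0.786, 1.09 and 4.24 FPKM in OGD-TIA, and Cryab, another of that family (chr9:50751325-50756636), was at 4.05, 9.56, 8.51 and 15.7 FPKM and 2.61, 2.66, 2.99 and 9.94 FPKM. Hspa1a (chr17:34969190-34972156) was at 3.5, 2.92, 1.74 and 2.23 FPKM and 4.86, 4.07, 3.63 and 2.77 FPKM. The groups overlapped for all 3 genes, and the near-identical copy Hspa1b leaves the value of Hspa1a uncertain.

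The promoters of 4 of these genes are printed because they hold the letters of the elements that are named after these responses. Each run is the 250 bases before the RefSeq start, 5′ to 3′ on the gene's strand in GRCm38.p6. Capitals mark matches to the AP-1 element TGANTCA, the heat shock element GAANNTTC or the antioxidant response element TGANNNNGC, on either strand, and in Plaur and Osgin1 an AP-1 match lies inside an antioxidant response element match.
Plaur, chr7:24462233-24462482, + strand: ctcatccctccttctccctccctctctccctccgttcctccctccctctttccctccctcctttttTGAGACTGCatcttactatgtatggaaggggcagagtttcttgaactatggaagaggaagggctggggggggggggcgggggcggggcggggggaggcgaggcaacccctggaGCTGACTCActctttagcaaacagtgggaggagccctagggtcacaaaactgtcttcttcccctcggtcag
Hspb1, chr5:135887669-135887918, + strand: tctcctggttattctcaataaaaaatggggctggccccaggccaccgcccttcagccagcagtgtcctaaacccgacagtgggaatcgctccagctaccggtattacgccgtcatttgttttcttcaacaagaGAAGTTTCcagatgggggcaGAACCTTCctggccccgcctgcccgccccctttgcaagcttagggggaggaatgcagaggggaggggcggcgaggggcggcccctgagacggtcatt
Hspa1a, chr17:34972157-34972406, - strand: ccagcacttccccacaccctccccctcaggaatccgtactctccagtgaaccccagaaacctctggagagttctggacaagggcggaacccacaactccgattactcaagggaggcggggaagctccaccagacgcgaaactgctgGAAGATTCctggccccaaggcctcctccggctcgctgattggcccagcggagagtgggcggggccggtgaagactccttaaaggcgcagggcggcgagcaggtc
Osgin1, chr8:119436897-119437146, + strand: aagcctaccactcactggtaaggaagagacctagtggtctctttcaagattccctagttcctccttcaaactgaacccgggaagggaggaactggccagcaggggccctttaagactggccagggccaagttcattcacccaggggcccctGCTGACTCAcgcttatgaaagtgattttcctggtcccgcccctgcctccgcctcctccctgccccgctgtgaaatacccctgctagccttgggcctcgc
Osgin1, an oxidative stress gene, was at 3.94, 9.14, 19.1 and 51.8 FPKM in OGD-VEH and 3.33, 7.51, 3.55 and 33.2 FPKM in OGD-TIA. Hspb1 was lower and Hspa1a higher with TIA in all 4 pairs although both windows hold the heat shock letters.

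Over the promoter windows, 250 bases before to 50 after the start, which RefSeq gave for 10900 of the 16351 genes tested, the motif shares barely varied with direction. The AP-1 letters were in 5.72% of the higher and 6.77% of the lower genes, against 5.79% of all genes tested. The heat shock letters were in 7.44% and 6.63% against 6.85%, and the antioxidant response letters in 46.8% and 46.6% against 47.7%. For the cAMP response element TGACGTCA the shares were 3.57% and 3.83% against 3.61%, and for the E-box CACGTG 10.1% and 11.6% against 11.6%. Over all 32851 windows of that length in the RefSeq table the shares were 7.81% for AP-1, 7.86% for the heat shock element, 41.3% for the antioxidant response element, 1.79% for the cAMP response element and 7.15% for the E-box. A match is a run of letters and not a bound site.

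Hypoxia and glycolysis genes gave a median of -0.08, with 11 of 37 lower in all 4 pairs (29.7%, against 18.5% of all genes). Higher in all 4 pairs were 4 (10.8%, against 14.4%). With isoforms weighted by length, 13 were lower and 9 higher. Without pair 13 with 9, 16 were lower (43.2%, against 34.1% of all genes) and 8 higher (21.6%, against 21.4%). Adm, a vasodilator peptide that hypoxia induces (chr7:110627661-110629820), was at 1.51, 2.33, 1.38 and 1.43 FPKM in OGD-VEH and 0.408, 0.422, 0.235 and 0.566 FPKM in OGD-TIA with no overlap. Without OGD Adm was at 1.14 ± 1.34 FPKM in CONTROL-VEH and 0.557 ± 0.4 FPKM in CONTROL-TIA (SD, n = 4 each). Hk2, a hexokinase, was at 1.25, 7.67, 2.81 and 3.04 FPKM and 0.893, 1.3, 1.07 and 1.65 FPKM. Slc2a3, the neuronal glucose transporter (chr6:122727809-122801640), was higher in all pairs at 83.4, 59.8, 52.8 and 17.2 FPKM and 101, 72, 66.8 and 34.7 FPKM. The neuronal enolase Eno2 was higher and the general enolase Eno1 lower in all 4 pairs.

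In the integrated stress and unfolded protein responses 7 of 38 genes were higher in all 4 pairs (18.4%, against 14.4% of all genes). Lower were 8 (21.1%, against 18.5%), and the median was -0.05. Without pair 13 with 9, 18 were lower (47.4%, against 34.1%) and 7 higher (18.4%, against 21.4%). The higher genes were the enzymes Asns and Mthfd2, the tRNA synthetases Aars, Gars and Nars, and Xbp1 and Syvn1. The lower genes were the endoplasmic reticulum folding genes Pdia4, Dnajb9, Dnajc3, Creld2 and Manf, the sensor Atf6, and Trib3 and Slc7a11. Atf6 (chr1:170704674-170867771) differed little but without overlap, at 6.75, 7.27, 7.29 and 8.49 FPKM in OGD-VEH and 5.87, 6.23, 6.18 and 6.54 FPKM in OGD-TIA. Cholesterol synthesis genes were higher in all 4 pairs for 6 of 24 (25%, against 14.4% of all genes), among them Fdps, Lss, Cyp51 and Hsd17b7. None was lower (0%, against 18.5%), and the median was 0.37. The number of higher genes was 14 without pair 13 with 9 (58.3%, against 21.4% of all genes) and 10 without pair 16 with 12 (41.7%, against 18.8%). Lss, the lanosterol synthase (chr10:76531588-76557138), was at 120, 154, 136 and 68.5 FPKM and 154, 175, 153 and 129 FPKM.

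Ribosomal protein genes made up the largest list, and none of them was higher in all 4 pairs. Of 77 genes 46 were lower in all 4 pairs (59.7%, against 18.5% of all genes). Without overlap between the groups were 10, against 2.51% of all genes in that direction. By limma 44 were lower with an unadjusted p under 0.05, against 5.04% of all genes. These genes were measured in the same cultures, so their p-values are not independent of each other. The median log2 difference was -0.28, with pair medians of -0.02, -0.41, -0.42 and -0.31. Rpl13 (chr8:123102350-123105244), of the large subunit, was at 230, 270, 233 and 292 FPKM in OGD-VEH and 177, 197, 172 and 214 FPKM in OGD-TIA. Rps25 (chr9:44407139-44410427), of the small subunit, was at 1196, 1374, 1296 and 1706 FPKM and 1006, 978, 930 and 1265 FPKM. The list summed to 68032 to 92544 FPKM in OGD-VEH, 63140 to 74490 in OGD-TIA and 54896 to 64203 in CONTROL-VEH. Reads of ribosomal protein genes can be shared with their processed pseudogenes, so single members are uncertain. With median-ratio scaling the median was -0.24.

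Mitochondrially encoded genes were lower in all 4 pairs for 5 of 13 (38.5%, against 18.5% of all genes) and higher for none, with a median of -0.10. Without pair 16 with 12, 3 were higher (23.1%, against 18.8% of all genes). mt-Nd1, a subunit of complex I (chrM:2751-3707), was at 5424, 6230, 5867 and 5580 FPKM in OGD-VEH and 5286, 5265, 5385 and 4805 FPKM in OGD-TIA. Cell cycle genes were lower in all 4 pairs for 17 of 32 (53.1%, against 18.5% of all genes), with a median of -0.48. Only Ccne1 was higher (3.12%, against 14.4%). Cdk1, the kinase of mitosis (chr10:69335146-69352938), was at 22.2, 117, 81.9 and 119 FPKM and 8.23, 49.7, 32 and 71.4 FPKM. Mcm5, a helicase subunit of DNA replication (chr8:75109569-75128439), was at 12.8, 17.1, 14.9 and 23.9 FPKM and 8.98, 11.2, 9.32 and 16.1 FPKM. Postmitotic neurons do not divide, and the oligodendrocyte lineage markers, whose progenitors can, had a median of -0.66 in the same cultures, and their part in the cell cycle list was not tested. Olig2, a transcription factor of that lineage (chr16:91225457-91228677), was at 69, 169, 154 and 174 FPKM and 63.6, 77.2, 73.2 and 111 FPKM.

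The neurotrophin and opioid lists were short, with 11 and 5 genes tested. The neurotrophin list had a median of 0.09, with 1 gene higher in all 4 pairs (9.09%, against 14.4% of all genes). This was Ngfr, a low-affinity neurotrophin receptor, whose difference in pair 14 with 10 was 0.00 to 2 digits. Lower were 2 (18.2%, against 18.5%). Without pair 13 with 9, 4 were higher and 4 lower (36.4% each, against 21.4% and 34.1% of all genes). Pomc, the precursor of beta-endorphin (chr12:3954951-3960642), was at 0.647, 0.992, 1.01 and 0.761 FPKM and 0.444, 0.364, 0.109 and 0.421 FPKM with no overlap. The 5 opioid genes tested had a median of 0.04, and none of them was higher in all 4 pairs. Lower were 2, Pomc and Pnoc (40%, against 18.5% of all genes). For Pnoc the pair differences were -0.45, -0.04, -0.02 and -0.05, and with isoforms weighted by length its 4 pairs did not share a direction.

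**Figure D5:**
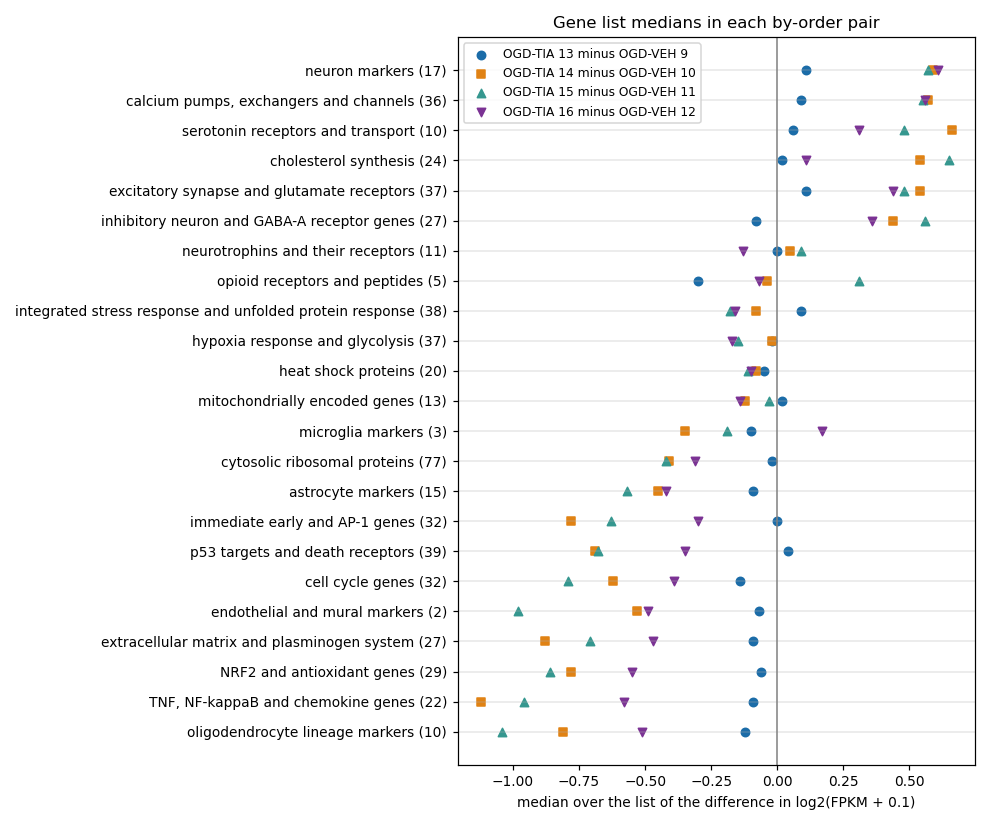
Median over each gene list of the difference in log2(FPKM + 0.1), OGD-TIA minus OGD-VEH (horizontal axis), with 1 symbol for each by-order pair. The blue circles of pair 13 with 9 lie near 0 in most lists, at 0.11 for neuron markers and -0.12 for oligodendrocyte lineage markers, while the other 3 pairs lie between 0.57 and 0.61 and between -0.51 and -1.04 for the same lists.

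Pair 13 with 9 differed from the others at the level of lists too. Its median was 0.04 for p53 targets, -0.06 for antioxidant genes, 0.11 for the excitatory synapse and -0.02 for ribosomal proteins. In the other 3 pairs the medians were -0.35 to -0.69, -0.55 to -0.86, 0.44 to 0.54 and -0.31 to -0.42 for these lists. With that pair left out, 26 of 29 antioxidant genes and 72 of 77 ribosomal protein genes were lower and 32 of 37 excitatory synapse genes were higher in the remaining 3 pairs. Over all genes 34.1% were then lower and 21.4% higher. All counts with a pair left out were chosen after seeing the data.

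The same comparison was made in the cultures without OGD. The CONTROL groups share no culture with the OGD groups, and limma called 0 of 16170 genes there, with 621 genes at an unadjusted p under 0.05 (3.84%), of which 292 were higher (1.81%) and 329 lower (2.03%). Of the 2353 genes higher with TIA after OGD, 142 (6.03%) were also higher in all 4 by-order CONTROL pairs, against 5.58% of all genes tested. About as many, 143 (6.08%), were lower in all 4 CONTROL pairs, against 6.65%. Of the 3028 lower genes, 239 (7.89%) were lower in all 4, against 6.65%, and 127 (4.19%) were higher, against 5.58%. The CONTROL difference was below 0 on average for 59.8% of the lower genes and for 51.6% of all genes, and above 0 for 52.9% of the higher genes and 48.3% of all genes.

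By list the CONTROL medians were 0.07 for p53 targets, 0.01 for the excitatory synapse, 0.00 for calcium genes, -0.01 for antioxidant genes and 0.02 for neuron markers. The astrocyte markers had a CONTROL median of -0.20. Of 77 ribosomal protein genes 16 were lower in all 4 CONTROL pairs, against 6.65% of all genes tested, with a median of -0.08. Whether the TIA difference itself differed with OGD was tested with an interaction term over all 16 cultures. limma called 0 of 16313 genes, and 988 (6.06%) had an unadjusted p under 0.05, 434 of them above 0 (2.66%) and 554 below 0 (3.4%). The interaction was -1.05 ± 0.49 (SE) for Trp53, -1.25 ± 0.70 for Fas, 1.05 ± 0.48 for Grin1 and 1.08 ± 0.39 for Atp2b3, each with an adjusted p of 0.722 by limma.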

How the data were processed

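RNA was sequenced from 16 cultures (stranded mRNA libraries, 50-base single-end reads). Per the labels and the study's methods, reads were checked with FastQC and aligned with STAR to GRCm38 (Ensembl release 92), and isoforms were quantified with eXpress. The versions are not given in the sources used here. The authors deposited 1 table of isoform FPKM values, scaled between libraries by TMM according to its name, with 135202 isoforms and 74 lines without an identifier that were left out (at most 0.0594% of a culture's FPKM). FPKM are not counts, so limma (version 3.58.1, R 4.3.3; trend on the mean) was used on log2(FPKM + 0.1) in place of the study's count-based test.

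Gene values are sums of isoform FPKM per symbol (112 symbols join more than 1 gene identifier). A sum of FPKM gives a read on a short isoform more weight than one on a long isoform. Fold changes on this scale understate the change of genes near 0.1 FPKM. Exon lengths and coordinates came from GENCODE M21, which held 99.82% of the isoforms, and promoters from RefSeq. Genes that averaged 0.5 FPKM or more over the cultures of a fit were tested. A call needed a Benjamini-Hochberg adjusted p of 0.05 or less together with a log2 fold change of 1 or more in size. Genes named by the study and 3 drug targets got two-sided exact permutation tests over 70 assignments. Genes chosen here by direction got no such test, while several of the genes the study names were picked by the study from these same cultures. Some genes that the rules for naming select are not reported here. Named were the genes the study names, the 12 protein-coding genes of at least 2 FPKM in each direction with the largest smallest pair difference, the 5 with the smallest p, up to 4 members of each list on the same rule, and the targets. Other list members are named by symbol where all 4 pairs had the same direction. Scripts were tested on simulated data. The members and gene lists were chosen with earlier results of these data known. Alternatives were another pseudocount, filter, scaling, isoform sum, unit of test, weighting and empirical Bayes, a replicate block, all cultures in 1 fit, and leaving out each culture.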

Additional observations from a re-analysis of the deposited data

Results flagged for a closer look

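Within groups of 4 cultures, the gap of an extreme value to its neighbour was divided by the range and compared with Dixon's critical value for groups of 4. Chance flags about 1 in 20 independent groups, and 15 of the 100 groups looked at (45 genes and 5 marker lists in OGD-VEH and OGD-TIA) passed. The 100 groups are the same cultures seen through different genes, some of them chosen by their pair differences. They are therefore not independent, and the 15 cannot be set against the chance rate. In OGD-TIA the ratio was 0.872 for Slc8a2, 0.886 for Htr1b, 0.889 for Reep5, 0.914 for Ccdc141, 0.851 for Oaf and 0.853 for Clcf1, and the value that stood apart was that of OGD-TIA 16 in each. The same culture stood apart in the OGD-TIA sums of neuron markers (0.89), astrocyte markers (0.88) and endothelial and mural markers (0.879). OGD-TIA 13 stood apart for Drc1 (0.837) and Gm960 (0.867).

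In OGD-VEH the ratio was 0.851 for Htr4 and 0.846 for Slc6a4, both at under 0.2 FPKM and lowest in OGD-VEH 12, and 0.849 for Gm960, highest in OGD-VEH 9. The summed endothelial and mural markers gave 0.845 in OGD-VEH, with 7.65 FPKM in OGD-VEH 12 against 2.45 to 3.25 FPKM in the others.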

How the results depend on the processing

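The count of 0 genes called in the OGD comparison was also found with a pseudocount of 1 or 0.01, a filter of 2 FPKM, median-ratio scaling, length-weighted isoforms, robust empirical Bayes and all 16 cultures in 1 fit. Array quality weights, which give OGD-VEH 9, OGD-VEH 12 and OGD-TIA 16 the least weight, called 408 of 16351 genes (146 higher and 262 lower). The smallest adjusted p by limma was 0.0453 there. Of the 408, 299 had the same direction in all 4 pairs, against 32.9% of all genes. Calling genes on the same cultures raises that count, and the weights were estimated from these cultures too. OGD-VEH 9 and OGD-TIA 16 are also the cultures that crossed between the groups in several genes above. In the interaction the weights called 101 of 16313 genes. Without a filter 4 genes were called after OGD (Gm11890, Gm20421, Gm22952 and Gm47708, each listed at 0 in a whole group), 3 in the interaction and 4 in CONTROL, and by isoform 13 after OGD and 5 in CONTROL. Leaving out 1 culture gave 0 to 2 genes, 2 without OGD-VEH 9 (Gm3470 and Gm9847) and 1 without OGD-VEH 12 (Gm20878), while the number with an unadjusted p under 0.05 ran from 736 to 3809, with 3809 without OGD-VEH 9 and 2958 without OGD-TIA 16.

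Counted by isoform, 5086 were higher and 6531 lower in all 4 pairs, and 786 and 1147 had no overlap. Leaving out a pair gave 2864 to 3507 higher and 3551 to 5575 lower genes, the highest without pair 13 with 9. Genes with no overlap, higher, numbered 342 without a filter and 308 to 1357 with a culture left out (1019 without OGD-VEH 9, 1357 without OGD-TIA 16, 323, 341 and 330 without OGD-VEH 10, 11 or 12). Those with no overlap, lower, numbered 525 to 2100 (2100 without OGD-VEH 9, 1614 without OGD-TIA 16, 620 without OGD-VEH 11 and 636 without OGD-TIA 13). With all cultures the counts were 212 higher (1.3%) and 410 lower (2.51%). Smaller groups separate more easily, and fewer pairs agree more easily. Counts with a culture or a pair left out are therefore not on the same scale as those with all cultures. Hif1a turned from -0.06 to 0.05 with array quality weights and to 0.01 without OGD-VEH 12 (-0.17 to 0.01 with a culture left out). Of 432 values of the 24 genes under alternatives none changed sign. Of 253 list medians 4 did, all of the opioid list. The causes were not tested.

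With a replicate block by order limma called 0 genes in all 3 comparisons, while 3822 genes reached an unadjusted p under 0.05 after OGD (1692 higher and 2130 lower). The deviations of by-order partners from their group means correlated at 0.27, 0.01, 0.04 and 0.47. Those of the other combinations of an OGD-VEH and an OGD-TIA culture correlated at -0.45 to 0.18. The order was not taken as a pairing because the labels do not tie cultures of different groups to each other. Depth limits low genes most, and the filter leaves 13131 genes at a mean of at least 2 FPKM.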
